A study of Mus musculus with 6 samples.

Results

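The Schlafen genes were followed in bone marrow of a pair of mouse outcrosses by every probe set whose platform symbol, alone or among several, was Slfn1, Slfn2, Slfn3, Slfn4, Slfn5, Slfn8 or Slfn9. These 7 of the 18194 measured genes are read by 12 of the 45037 probe sets tested, 11 with a single symbol and 1 that carries both Slfn4 and Slfn3. Marrow came from adult female (AKR/J x FVB/NJ)F1 mice, called AKR F1 here (3 arrays), and from adult female (DBA/2J x FVB/NJ)F1 mice, called DBA F1 here (3 arrays). Both crosses share the FVB/NJ parent, so every animal carries an FVB/NJ copy of its autosomal genes, and no treatment other than Avertin anesthesia at death is given in the labels. The comparison asks how basal transcript levels differ between the genotypes.

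Schlafen proteins are a family of mammals known mainly from blood and immune cells. They share an N-terminal core domain that in several members binds or cleaves RNA, transfer RNA among it, and many of their genes are induced by type I interferon. Short members (Slfn1, Slfn2) consist of little more than the core, intermediate members (Slfn3, Slfn4) add a linker, and long members (Slfn5, Slfn8, Slfn9) add a helicase-like domain. The mouse genes lie side by side on chromosome 11, and several are close copies of each other. In mice Slfn2 is known for keeping T cells and monocytes quiescent, and other members for changing as myeloid cells mature or are activated.

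The promoters of the 7 genes are shown first, because the Slfn8 and Slfn9 windows are close copies and because members share short motifs. Windows of 300 bases, from 250 before to 50 after each transcription start, were taken from RefSeq (build GRCm38.p6), which held at least 1 window for all 7 genes and a second start for Slfn8. Both strands were searched for GAAA, then any 2 bases, then GAAA, which resembles an interferon-stimulated response element, for TTCNNNGAA, which resembles a gamma-activated site, and for ACTTCCTG, which holds the core of sites read by ETS factors. The last of these was chosen after these sequences had been read, so which members hold it is a description of that choice. For Slfn8 (its outer start) and Slfn9 the whole window is printed, and for the other genes the 60 bases around the match. In each line the capitals mark matches on either strand, and none of them overlaps a match of another motif.
Slfn8 (chr11:83020761-83021060, minus strand): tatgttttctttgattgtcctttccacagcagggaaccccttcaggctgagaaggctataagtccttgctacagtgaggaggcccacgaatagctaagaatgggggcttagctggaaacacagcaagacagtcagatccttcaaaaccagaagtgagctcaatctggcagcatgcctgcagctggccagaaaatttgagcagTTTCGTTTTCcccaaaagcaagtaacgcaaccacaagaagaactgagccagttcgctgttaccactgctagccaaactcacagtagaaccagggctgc
Slfn9 (chr11:82991781-82992080, minus strand): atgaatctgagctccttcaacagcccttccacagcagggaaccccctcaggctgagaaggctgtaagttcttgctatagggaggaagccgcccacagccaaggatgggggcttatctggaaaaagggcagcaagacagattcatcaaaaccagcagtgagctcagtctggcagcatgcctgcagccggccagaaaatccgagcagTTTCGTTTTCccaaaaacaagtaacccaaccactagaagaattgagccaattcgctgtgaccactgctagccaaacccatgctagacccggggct
Slfn5 (chr11:82951922-82951981, plus strand): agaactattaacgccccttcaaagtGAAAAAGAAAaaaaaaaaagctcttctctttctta
Slfn1 (chr11:83116721-83116780, plus strand): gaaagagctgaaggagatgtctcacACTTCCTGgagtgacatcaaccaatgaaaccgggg
Slfn2 (chr11:83065032-83065091, plus strand): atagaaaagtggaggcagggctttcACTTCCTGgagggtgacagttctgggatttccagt
Slfn3 (chr11:83191245-83191304, plus strand): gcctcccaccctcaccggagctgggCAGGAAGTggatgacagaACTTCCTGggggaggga
Slfn4 (chr11:83175088-83175147, plus strand): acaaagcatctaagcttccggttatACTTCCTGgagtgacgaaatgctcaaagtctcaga
The long members Slfn5, Slfn8 and Slfn9, neighbours at one end of the cluster, held the pair of GAAA, as did 3.44% of the 32851 promoter windows of the table. The short and intermediate members Slfn1, Slfn2, Slfn3 and Slfn4, at the other end, held ACTTCCTG, as did 3.33% of all windows. TTCNNNGAA was in none of the 7 genes' windows, against 8.30% of all windows. In Slfn8 the match began 48 bases before the outer transcription start and in Slfn9 45 bases before it. In an end-to-end alignment the Slfn8 and Slfn9 windows were identical at 80.5% of the aligned positions, and the other 20 pairs of members lay between 41.9% and 49.4%. These matches describe letters of the reference genome, and the AKR/J, DBA/2J and FVB/NJ alleles were not analysed here.

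Where the Schlafen probe sets differed between the crosses, they were lower in AKR F1 marrow. Of the 12 probe sets, 4 passed the test and all 4 were lower: Slfn8, the probe set shared by Slfn4 and Slfn3, 1 of 3 probe sets of Slfn5, and the dim probe set of Slfn3. That is 33.3% of the members, against 12.3% of all probe sets past the test in either direction and 6.73% past it and lower. None was higher, against 5.57% of all probe sets. At an unadjusted p under 0.05, 7 members were lower, against 13.3% of all probe sets. The test was limma's moderated linear model on the deposited log2 values over all 45037 probe sets, with two-sided p-values adjusted by Benjamini and Hochberg's method, and a result passed under 0.05. Each difference is given on the log2 scale as the AKR F1 mean less the DBA F1 mean. In 7 of the 12 probe sets the 3 AKR F1 arrays all lay below the 3 DBA F1 arrays and in none above (58.3%, against 33.0% of all probe sets not overlapping in either direction and 14.9% lower). The median difference of the 12 was -0.36, against 0.03 for all probe sets. Brightness matters to such counts: of the 6 members above the median probe set level of 5.17, 2 passed, against 21.1% of all probe sets above that level.

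**Figure D1:**
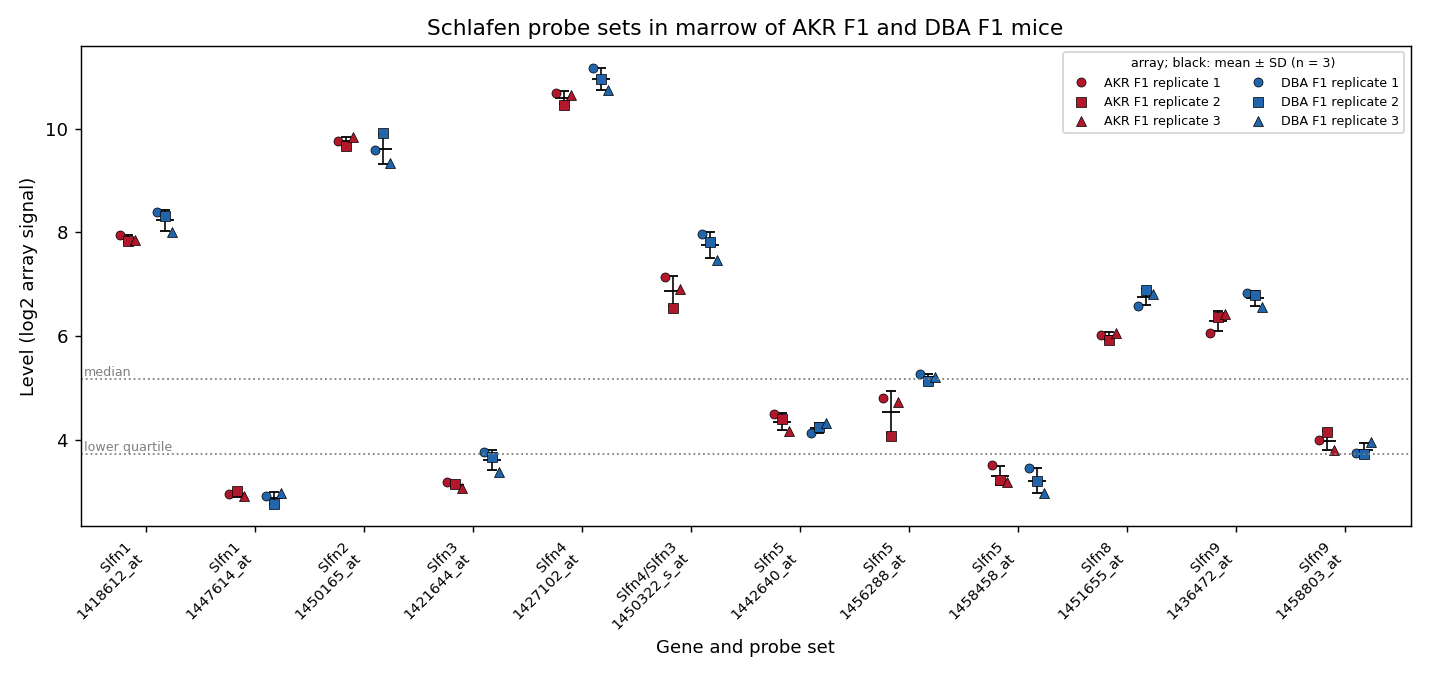
Level (log2 array signal, vertical axis) of the 12 Schlafen probe sets in each array, AKR F1 in red left of DBA F1 in blue, with mean ± SD in black (n = 3 each) and dotted lines at the lower quartile and median of all probe set means. Red and blue are fully apart for Slfn8, Slfn3, Slfn4, the shared probe set, the brighter Slfn1 and Slfn9 probe sets and 1 Slfn5 probe set, and overlap for Slfn2 and the 4 other dim probe sets.

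**Figure D2:**
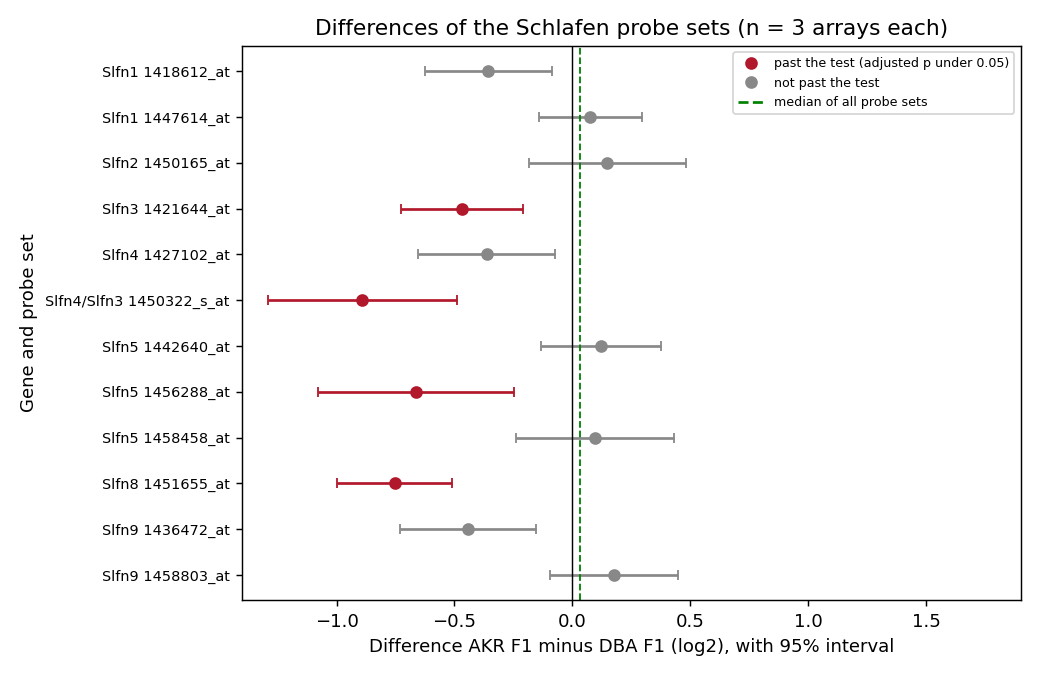
Difference AKR F1 minus DBA F1 (log2, horizontal axis) of each Schlafen probe set with its 95% interval from the fit, red where the adjusted p was under 0.05. The 4 red points lie between -0.89 and -0.47, and the interval of Slfn2 spans 0.

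Several limits bear on all values. The number of arrays limits precision, and nothing in the labels says which animal gave which array, so a p-value here measures only spread between samples, which may be technical. In whole marrow, fewer cells of a type and less RNA per cell cannot be told apart. The probes match reference sequence, and strain variants under them were not analysed here. Array medians lay between 5.14 and 5.19. Controls and other tissue also separated the crosses: hybridization controls averaged 9.74 to 9.95 in AKR F1 and 10.27 to 10.72 in DBA F1, and the 3' to 5' index of RNA and labelling controls was 1.66 to 2.22 in AKR F1 and 1.44 to 1.54 in DBA F1. Of 20 skeletal muscle genes 11 were lower in AKR F1 and none was higher, with a summed level between 11.86 and 12.93 in AKR F1 and between 13.26 and 15.91 in DBA F1 (log2 of the summed linear signals). The muscle count was 1, 5, 0 and 5 without AKR F1 replicates 1, 2 and 3 and DBA F1 replicate 3. It was 13 and 15 without DBA F1 replicates 1 and 2, and 0 with robust variances that follow the level. With each of these measures as a covariate, 0 (3' to 5' index), 0 (hybridization controls) and 1 (muscle) of the 12 Schlafen probe sets passed limma, while 2, 2 and 3 had an unadjusted p under 0.05, and 53, 12 and 156 of all probe sets passed. Each of these measures separated the crosses without overlap, so a fit with it as a covariate leaves little from which to estimate the difference. In these arrays the part of these measures in the Schlafen differences cannot be told apart from that of genotype, and it was not tested further.

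Slfn8, a long member, gave the smallest p of the family. Its probe set 1451655_at read 6.03, 5.93 and 6.06 in AKR F1 replicates 1 to 3, against 6.58, 6.89 and 6.81 in DBA F1. All 3 AKR F1 arrays lay below the lowest DBA F1 array, and the gap between the groups was wider than the range within either. The difference was -0.75 (SE 0.11, 95% interval -0.997 to -0.51, adjusted p = 0.0063 in limma), so the AKR F1 level was 0.593 of that in DBA F1. Among the Schlafen probe sets it alone passed whichever of the 6 arrays was left out, with adjusted p from 0.0071 to 0.032. With the 3' to 5' index as a covariate the difference was -0.73 (SE 0.20, adjusted p = 0.23 in limma), with the hybridization controls -0.48 (SE 0.22, adjusted p = 0.47) and with the muscle mean -1.03 (SE 0.15, adjusted p = 0.049).

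Slfn9 is the closest relative of Slfn8 in promoter sequence and lies next to it. Its brighter probe set 1436472_at read 6.07, 6.36 and 6.44 in AKR F1, against 6.83, 6.80 and 6.56 in DBA F1. The groups did not overlap, but the highest AKR F1 array and the lowest DBA F1 array lay close together. The difference of -0.44 (95% interval -0.73 to -0.15) did not pass over all probe sets (adjusted p = 0.057 in limma). It passed over 1 probe set per gene, the brightest, with adjusted p = 0.047, and in the probe set test without DBA F1 replicate 3 (0.046). With the 3' to 5' index as a covariate the difference was -0.76 and with the hybridization controls -0.18, and neither passed. The second probe set of Slfn9, dim with means of 3.99 (AKR F1) and 3.81 (DBA F1), differed by 0.18 (95% interval -0.10 to 0.45). Since Slfn8 and Slfn9 are close copies, either probe set may also read RNA of the other gene.

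Slfn5, the remaining long member, was read by 3 probe sets that did not go together. Probe set 1456288_at read 4.81, 4.08 and 4.74 in AKR F1, against 5.26, 5.14 and 5.22 in DBA F1. The DBA F1 arrays were nearly equal, and AKR F1 replicate 2 lay far below the other AKR F1 arrays. The difference was -0.66 (95% interval -1.08 to -0.25, adjusted p = 0.049 in limma), just inside the threshold. The call was lost with the arrays quantile-normalized (0.053) or centred on their medians (0.054), at the same difference of -0.66. It stayed past the threshold without AKR F1 replicate 1 (0.042) and lost it without any other array, with adjusted p of 0.065 and 0.089 without AKR F1 replicates 2 and 3 and of 0.096, 0.11 and 0.10 without DBA F1 replicates 1, 2 and 3. Without AKR F1 replicate 2 the difference was -0.43, and with the 3' to 5' index as a covariate it was -0.13, both a change by over 1.5 times. The other 2 probe sets differed by 0.12 (95% interval -0.13 to 0.38) and 0.10 (-0.24 to 0.43), with overlapping groups. All 3 lay below the median probe set level. Slfn5os, a noncoding RNA annotated beside Slfn5, differed by -0.07 (adjusted p = 0.71 in limma).

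Of the intermediate members, Slfn4 is known in mice from macrophages and other myeloid cells, where it changes with maturation and activation. Its own probe set 1427102_at was among the brightest on the arrays and read 10.69, 10.46 and 10.65 in AKR F1, against 11.17, 10.96 and 10.75 in DBA F1. The groups were apart by a narrow gap. The difference was -0.36 (95% interval -0.65 to -0.07), and it did not pass (adjusted p = 0.10 in limma). It passed with array weights (-0.37, adjusted p = 0.048), and it was -0.19 with the 3' to 5' index as a covariate and -0.23 with the muscle mean, both a change by over 1.5 times.

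The probe set annotated to both Slfn4 and Slfn3, 1450322_s_at, read 7.13, 6.55 and 6.91 in AKR F1, against 7.98, 7.82 and 7.48 in DBA F1. All AKR F1 values lay below all DBA F1 values, and the level in DBA F1 was 1.85-fold that in AKR F1. The difference was -0.89 (SE 0.17, 95% interval -1.29 to -0.49, adjusted p = 0.017 in limma), the largest of the 12. It passed without AKR F1 replicate 1 (0.017), DBA F1 replicate 1 (0.035) or DBA F1 replicate 3 (0.016), and did not pass without AKR F1 replicate 2 (0.056), AKR F1 replicate 3 (0.064) or DBA F1 replicate 2 (0.056). With the 3' to 5' index as a covariate the difference was -0.45 (adjusted p = 0.56 in limma), a change by over 1.5 times. How much of this signal is Slfn4 and how much is Slfn3 cannot be read from the probe set.

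Slfn3 had 1 probe set of its own, 1421644_at, which read 3.18, 3.16 and 3.08 in AKR F1, against 3.76, 3.68 and 3.39 in DBA F1. The mean level lay below the lower quartile of all probe sets (3.72), so this is a dim signal on both sides. The groups did not overlap, and the difference was -0.47 (95% interval -0.73 to -0.21, adjusted p = 0.033 in limma). Of the 6 fits that left out 1 array it passed in 1, without DBA F1 replicate 3 (0.015). Without AKR F1 replicates 1, 2 and 3 the adjusted p was 0.068, 0.10 and 0.12, and without DBA F1 replicates 1 and 2 it was 0.070 and 0.10. Slfn3 is known in mice and rats from T cells and from maturing cells of the gut lining.

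The short members did not pass. Slfn1, whose forced expression slows growth of mouse T cells, was read by 1418612_at at 7.95, 7.84 and 7.85 in AKR F1, against 8.39, 8.32 and 8.003 in DBA F1. DBA F1 replicate 3 lay close above the AKR F1 arrays, and without it the call changed: the difference of -0.36 (95% interval -0.63 to -0.09, adjusted p = 0.089 in limma) became -0.47 (adjusted p = 0.027). The second Slfn1 probe set lay near the floor of the arrays, with means of 2.97 (AKR F1) and 2.89 (DBA F1), and differed by 0.08.

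Slfn2, which keeps mouse T cells and monocytes quiescent, was bright in every array. Its probe set 1450165_at read 9.77, 9.66 and 9.84 in AKR F1, against 9.58, 9.91 and 9.33 in DBA F1. The groups overlapped, and DBA F1 held both the highest and the lowest value. The difference was 0.15 (95% interval -0.19 to 0.48, adjusted p = 0.57 in limma). It was 0.30 without DBA F1 replicate 2, 0.011 without DBA F1 replicate 3, 0.037 with array weights, 0.68 with the hybridization controls as a covariate and -0.077 with the muscle mean, and passed in none of these fits. The gap between each other Schlafen gene, read by its brightest single-symbol probe set, and Slfn2 was also computed. The change of Slfn8 was below that of Slfn2 by 0.90 on the log2 scale (-0.90 as AKR F1 minus DBA F1), and those of Slfn5, Slfn3, Slfn9, Slfn4 and Slfn1 differed from it by -0.81, -0.62, -0.59, -0.51 and -0.51. In each of these 6 comparisons the groups did not overlap, but how often the gap of any gene to Slfn2 does so was not computed. The two-sided exact permutation p was 0.10, the smallest that 3 against 3 arrays allow, so no comparison could pass 0.05. All 6 use the same Slfn2 values and are not independent, and Slfn2 had the highest difference of the member genes. No conclusion is drawn from them.

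DBA F1 replicate 3 was the lowest DBA F1 array in 7 of the 12 Schlafen probe sets, against 33.2% of all probe sets, and in 5 of the 6 above the median level, against 42.2% of all probe sets above it. Leaving it out raised the number of Schlafen probe sets past the test to 5, while leaving out AKR F1 replicate 2, AKR F1 replicate 3 or DBA F1 replicate 2 lowered it to 1 each, DBA F1 replicate 1 to 2 and AKR F1 replicate 1 to 3. All called probe sets in these fits were lower in AKR F1.

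Read by 1 probe set per gene, 4 of the 7 Schlafen genes were lower (Slfn3, Slfn5, Slfn8 and Slfn9) and none was higher. Of all 18194 genes 15.2% passed in either direction and 6.03% were lower. The median of the 7 was -0.44, against 0.06 for all genes. Of the other Schlafen names, Slfn10-ps, a pseudogene inside the cluster, lay near the floor with means of 2.957 (AKR F1) and 2.996 (DBA F1). Slfnl1, a relative outside the cluster, averaged 4.53 (AKR F1) and 4.44 (DBA F1). Neither passed. No probe set tested carried the symbol Slfn14, so that gene was not measured here.

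The cluster runs, by RefSeq, as far as Slfn14. In chromosome order the measured genes are Slfn5os, Slfn5, Slfn9, Slfn8, Slfn10-ps, Slfn2, Slfn1, Slfn4 and Slfn3, and then AI662270, a noncoding RNA gene that lies between Slfn3 and Slfn14 and differed by -0.44 (adjusted p = 0.087 in limma). Of the nearest 6 measured genes beyond each end, 12 in all, 3 were higher in AKR F1, 1 was lower, and the other 8 missed the threshold (median 0.08), against 9.20% of all genes higher and 6.03% lower. On the Slfn5 side, Nle1, a ribosome assembly factor, averaged 7.22 (AKR F1) and 6.66 (DBA F1), higher by 0.56 (adjusted p = 0.018 in limma), and Rad51d, a DNA repair gene, was higher by 0.34. The other Rad51d probe sets differed by 0.65 (adjusted p = 0.058 in limma), 0.04 and 0.02 without passing. Beyond Slfn14, Ap2b1, a clathrin adaptor subunit, was lower at its brightest probe set (difference -1.38, 8.14 in AKR F1 and 9.52 in DBA F1, adjusted p = 0.0093 in limma), while the 2 further Ap2b1 probe sets, at -0.15 and 0.08, did not pass. Taf15, an RNA-binding factor, was higher by 0.93 (adjusted p = 0.0041), and its dim second probe set differed by -0.39 without passing. The chemokine gene Ccl5 differed by 0.19 and the muscle chaperone gene Unc45b by -0.70 (95% interval -1.48 to 0.09). Without any 1 of the AKR F1 arrays 1 of these neighbours was higher and 1 lower.

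**Figure D3:**
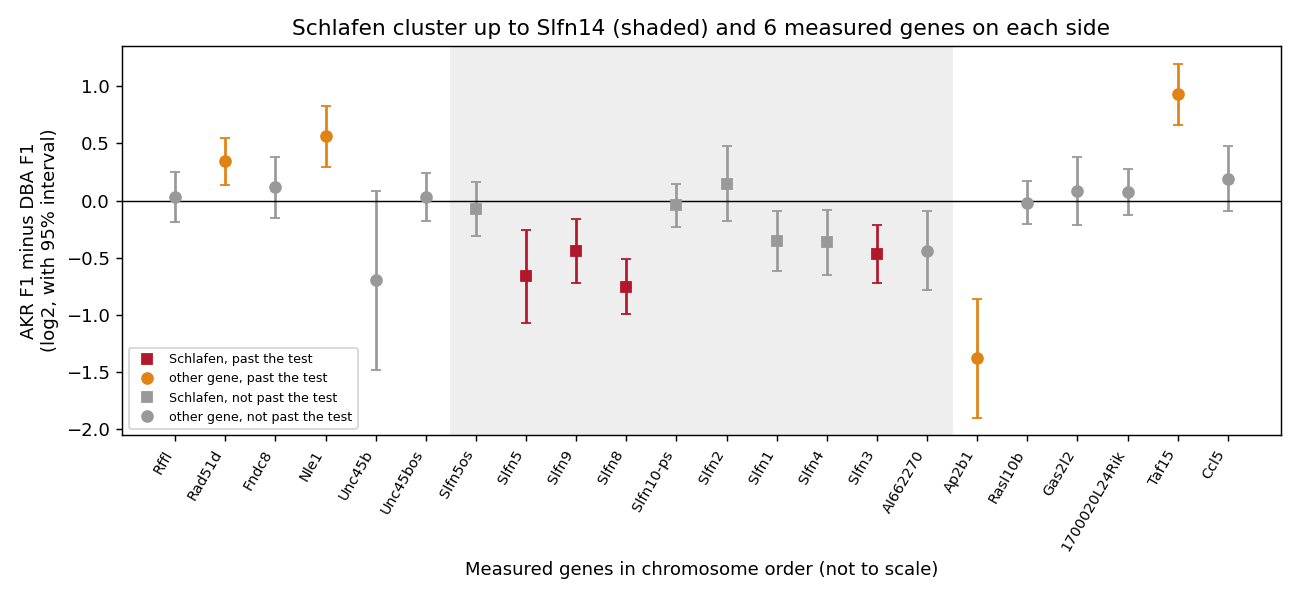
Difference AKR F1 minus DBA F1 (log2, vertical axis, with 95% interval) of the brightest probe set of each measured gene in chromosome order, which is not to scale, with the Schlafen cluster up to Slfn14 shaded. Squares are Schlafen genes and circles other genes; colours mark the test, and Slfn5, Slfn9, Slfn8 and Slfn3 are the shaded genes that passed it, all below 0.

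Interferon-induced genes, with which Schlafen genes are often grouped, are given beside the family: of 36 genes measured outside the Schlafen family, 14 were higher in AKR F1 marrow, 1 was lower and 21 missed the threshold. Their median was 0.20 (all genes: 9.20% higher, 6.03% lower, median 0.06). Oas3, an antiviral oligoadenylate synthetase, was 2.15-fold higher (7.84 ± 0.13 in AKR F1 and 6.73 ± 0.14 in DBA F1, SD, n = 3 each, adjusted p = 0.0020 in limma). Oas1a, Ifi27l2a, Bst2, Ifit1 and Oas2 were higher by 0.95, 0.93, 0.74, 0.66 and 0.51. Irf7, which drives type I interferon genes, was higher by 1.07 (adjusted p = 0.018), and Samd9l, an interferon-induced growth regulator, was the single lower gene at -0.52. The number past the test was 8 without AKR F1 replicate 1 and 7 without AKR F1 replicate 3. The list and the Schlafen genes are given side by side, and the difference between them was not tested.

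Of 22 genes of interferon signalling, 1 passed, against 15.2% of all genes in either direction. Irf3, a factor that switches on interferon genes, was higher by 0.68 (9.70 ± 0.09 in AKR F1 and 9.02 ± 0.35 in DBA F1, adjusted p = 0.027 in limma). A second Irf3 probe set was higher by 0.57, and the other 2 differed by 1.01 and -0.03 without passing. Irf9 and Irf1 differed by 0.33 and 0.29 and Stat2, a subunit of the factor that binds interferon-stimulated response elements, by -0.33 at one probe set and 0.07 at the other, and none of these passed. No gene of the list passed once AKR F1 replicate 1, 2 or 3 or DBA F1 replicate 2 was left out, 2 passed without DBA F1 replicate 1, and 3 (2 higher, 1 lower) without DBA F1 replicate 3. When a gene's probe sets were averaged, 2 genes were higher and 3 lower.

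Genes of quiescence, the state that Slfn2 helps to keep, were higher in 4 of 15 cases and lower in none, with a median of 0.26 (all genes: 9.20% higher, 6.03% lower, median 0.06). Foxp1, a factor that keeps T cells naive, was higher by 1.02 (10.53 ± 0.17 in AKR F1 and 9.51 ± 0.21 in DBA F1, adjusted p = 0.0043 in limma). Of its 8 probe sets 3 were higher in the probe set test and none lower, and 3 differed by -0.24, -0.23 and -0.09. Btg2, an antiproliferative gene, was higher by 0.57, and its second probe set, also bright, differed by 0.28 without passing (adjusted p = 0.063 in limma). Cdkn2c, a cell cycle inhibitor, was higher by 0.50, and Klf2, a factor of resting T cells, by 0.82, with adjusted p = 0.0498 for Klf2. The count was 2 without AKR F1 replicate 3. With any of the 3 covariates no gene of the interferon-induced, interferon signalling or quiescence lists and no chromosome neighbour passed.

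**Figure D4:**
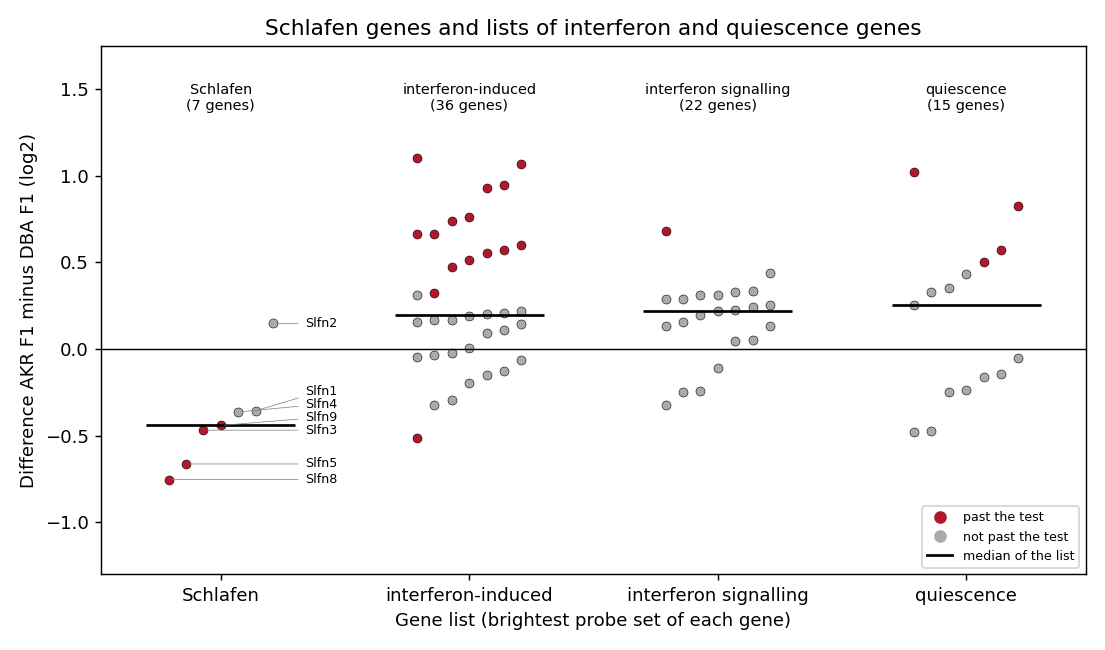
Difference AKR F1 minus DBA F1 (log2, vertical axis) of the brightest probe set of each gene in the 7 Schlafen genes and 3 gene lists, red where the gene passed the test, with a black line at the median of each list; horizontal spread within a list carries no value. The Schlafen median is -0.44, and those of interferon-induced, interferon signalling and quiescence genes are 0.20, 0.22 and 0.26.

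Markers of blood cell types are read against the 15.2% of all genes that passed in either direction. Of 15 T cell genes 2 were higher (Cd3e by 0.56 and Cd4 by 0.38) and none lower, a share near that background, with a summed level of 11.64 to 11.94 in AKR F1 and 11.70 to 11.82 in DBA F1. The dimmer second probe set of Cd4 differed by 0.05 without passing. Among 17 genes of monocytes and macrophages 5 were higher (C1qc and Marco among them) and F13a1 was lower, at 14.96 to 15.13 in AKR F1 and 14.94 to 15.09 in DBA F1. Of 17 neutrophil genes 1 was higher (Elane) and 3 were lower, Fpr2 and Itgam among them, at 17.19 to 17.26 in AKR F1 and 16.95 to 17.24 in DBA F1. No marker of these 3 lists was below the lower quartile of all probe sets. The summed levels of the crosses overlapped in all 3 lists. The mean log2 level did not overlap for the T cell list, at 6.605 to 6.739 in AKR F1 and 6.473 to 6.58 in DBA F1. Nor did it for monocytes and macrophages, at 9.325 to 9.544 in AKR F1 and 9.238 to 9.3 in DBA F1. For neutrophils it overlapped, at 12.15 to 12.37 in AKR F1 and 11.93 to 12.38 in DBA F1. The part of these 3 lists in the Schlafen differences was not tested. In the B cell list 1 of 14 genes was higher (Cd79a) and 2 were lower (Ms4a1 and Ebf1), at 13.004 to 13.57 in AKR F1 and 13.07 to 13.25 in DBA F1. In the NK cell list 1 of 10 was higher (Nkg7) and 2 were lower (Gzma and Gzmb), at 10.45 to 10.53 in AKR F1 and 10.15 to 10.33 in DBA F1, with Klra8 below the lower quartile. Of 16 erythroid genes 8 were higher and none lower, with summed levels of 15.98 to 16.00 in AKR F1 and 15.68 to 15.81 in DBA F1 and with Hba-a1 below the lower quartile, and of 10 megakaryocyte genes 2 were higher. The summed levels of the NK cell and erythroid lists did not overlap between the crosses. The NK cell sum is weighted to its brightest gene, Nkg7 (9.66 in AKR F1 and 8.92 in DBA F1), while Gzma and Gzmb differed by -0.83 and -0.42. The mean log2 level of the NK cell list did overlap, at 6.09 to 6.13 in AKR F1 and 6.08 to 6.14 in DBA F1. The part of the NK cell and erythroid lists in the Schlafen differences was not tested either. These counts rest on few arrays. Without AKR F1 replicate 2 or 3 or DBA F1 replicate 2 no neutrophil gene passed, without DBA F1 replicate 3 there were 2, and without DBA F1 replicate 1 all 4 that passed were higher. The monocyte and macrophage count was 3, 3 and 1 without AKR F1 replicates 1, 2 and 3, and the T cell count was 1 without each of these or DBA F1 replicate 2. Without AKR F1 replicate 2 or 3, 2 erythroid genes and no megakaryocyte gene passed, without AKR F1 replicate 1 or DBA F1 replicate 3 there was 1 megakaryocyte gene, and without AKR F1 replicate 2 there was 1 NK cell gene.

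Genes with the pattern most like a called Schlafen gene were found by the root-mean-square difference of values centred on each gene's mean over the 6 arrays, among genes above the median level. For Slfn8 the nearest were Thbs1, which encodes a matrix glycoprotein that platelets release (0.0520 on the log2 scale), Kif18a, a mitotic kinesin (0.0584), and Ssb, an RNA-binding protein (0.0587). For Slfn9 they were Arid4a (0.0348), Slc35d3 (0.0371) and Enox2 (0.0559). For Slfn5 they were Lnpk (0.0591), Nedd4 (0.0892) and Fcho2 (0.0977), and for Slfn3 3110001I22Rik (0.0413), Slc26a2 (0.0491) and Ttc32 (0.0528). All 12 had a lower mean in AKR F1, a direction that the search itself sets. None is a Schlafen gene, but the search could not return every member. Slfn5 and Slfn3 lie below the median level, and the probe set shared by Slfn4 and Slfn3 has several symbols. No conclusion on likeness within the family is drawn.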

How the data were processed

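The authors deposited 1 table of log2 expression values, with 45101 Affymetrix probe sets and 6 arrays, normalized between arrays by the authors before deposit. Per the labels' protocols, total RNA was extracted with Trizol and labelled with biotin. Per the submitters' processing notes RMA and MAS5 were used; their roles and versions are not given in the sources used here. No detection calls were used. Tests left out 64 control probe sets. Differences were fitted with limma 3.58.1 in R 4.3.3 (lmFit and eBayes, 4 residual degrees of freedom), AKR F1 minus DBA F1, over all probe sets and over the brightest single-symbol probe set of each of 18194 genes. Genes were matched by gene ID to GRCm38.p6, which held 18032 of them. Promoters were aligned with Biopython 1.88 (match 1, mismatch -1, gap opening -3, gap extension -0.5). The Schlafen members, lists, tests and alternatives were chosen with earlier results of these data known. Genes named are all Schlafen probe sets, chromosome neighbours, up to 6 called members of the interferon and quiescence lists with the smallest p beside Irf1, Irf7, Irf9 and Stat2, up to 3 of each cell type list, and the nearest patterns; Samd9l, AI662270, Ccl5, Unc45b, Hba-a1 and Klra8 were singled out after their values were seen, where outside that rule. Alternatives were other normalizations, filters on dim probe sets, other variance models, array weights, a replicate block, leaving out each array, the covariates and other thresholds. A further gene of that rule is not reported here. The limma step was tested on simulated data.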

Additional observations from a re-analysis of the deposited data

How the results depend on the processing

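The number of Schlafen probe sets past limma was 3 or 4, all lower in AKR F1, with the arrays quantile-normalized or centred on their medians, with dim probe sets left out, or with robust variances that follow the level, and 7 with array weights; the call lost on rescaling was that of Slfn5, and filters took the dim Slfn3 and, at the median level, Slfn5 out of the test, where Slfn9 passed (adjusted p = 0.044). Leaving out 1 array gave 1 to 5 Schlafen probe sets, 1683 to 5581 of all probe sets, 685 to 3248 of all genes and 7 to 14 interferon-induced genes, with fewer samples in each fit. With a covariate (first the 3' to 5' index, then hybridization controls, then the muscle mean) 0, 0 and 1 Schlafen probe sets, 53, 12 and 156 of all probe sets, 3, 2 and 108 genes and 0, 0 and 0 interferon-induced genes passed, while 15, 10 and 15 of the last had an unadjusted p under 0.05. A threshold of 0.01 gave 1, 1214, 526 and 6, and a threshold of 0.10 gave 6, 8489, 4243 and 16. Of the alternative values of single Schlafen probe sets, 164 kept direction and side of the threshold, 29 lost the call and 8 gained one. The 6 that turned sign were all of probe sets that had not passed: the dimmest Slfn5 probe set at -0.0088 without AKR F1 replicate 1, -0.027 without DBA F1 replicate 3 (range -0.027 to 0.22 over the fits that left out 1 array) and -0.13 with the hybridization controls, the dim Slfn1 and Slfn9 probe sets at -0.16 and -0.026 with the hybridization controls, and Slfn2 at -0.077 with the muscle mean. The cause was not tested. The labels do not say whether arrays with the same replicate number share anything else. The deviations of such arrays correlated at 0.05, 0.02 and 0.08, and 4 of 6 arrays correlated best with their own number. With the replicate number as a block 4 Schlafen probe sets, 5321 probe sets, 2357 genes and 14 interferon-induced genes passed, and no call of a Schlafen probe set changed. The 12 probe sets span bright to near-floor signals, and differences of the 3 below the lower quartile are the least certain.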
